A study of Homo sapiens and Mus musculus with 10 samples.

Results

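Translation initiation factors were followed at the RNA level in HEK293T cells, a human embryonic kidney line, under loss of glucose and under stress of the endoplasmic reticulum (ER). The genes were chosen by name: every row of the HEK293T count tables whose symbol begins with EIF and a digit, without the EIF2AK kinases and without pseudogenes. This gave 46 members among 16619 symbols, 44 from the coding family and 2 noncoding neighbours, EIF1B-AS1 and EIF3J-DT. The 3 EIF4EBP genes, whose products (4E-BPs) bind and block the cap-binding factor, were kept apart from these 46.

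The series holds 10 libraries of RNA depleted of ribosomal RNA, of which the 7 from HEK293T were used. A stress set had wild-type (WT) cells, with 1 library each of mock treatment, 24 h of glucose deprivation (GD) and 6 h of 300 nM thapsigargin (TG), which blocks the calcium pump of the ER. A genotype set had WT and UFD1s-deficient cells, with mock and GD libraries of each. The labels name UFD1s, a form of the p97 cofactor UFD1, as the form lost in the deficient cells, and no other allele or agent is labelled. Whether the line is 1 clone is not stated.

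Initiation begins when a small ribosomal subunit, carrying eIF1, eIF1A, eIF3 and eIF5, receives the initiator tRNA from eIF2 bound to GTP. The loaded subunit is then brought to the mRNA cap by eIF4F, which joins the cap-binding protein eIF4E, the scaffold eIF4G and the helicase eIF4A. Stress is known to slow this pathway mainly through proteins: kinases phosphorylate the alpha subunit of eIF2, which then blocks its exchange factor eIF2B, and low mTOR activity leaves 4E-BPs free to hold eIF4E. The values here are RNA levels and do not measure any of these protein states.

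Of the 46 members, 43 had a row in the stress table and 41 in the genotype table. Each row is 1 RefSeq transcript, so a value need not be the total of the gene. The same transcript stood in both tables for 34 members, and these 34 were tested. A different transcript was counted in each table for EIF1AD, EIF2B3, EIF3C and EIF5A. EIF4E, EIF4E1B, EIF4ENIF1, EIF5AL1 and EIF1B-AS1 had a row in the stress table alone, and EIF2D, EIF4E3 and EIF4G1 in the genotype table alone. EIF4A1 and EIF2B4 were not analysed here. In mock-treated WT cells, 32 of the 43 stress rows and 36 of the 41 genotype rows had 50 or more reads.

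How far a row can stand for its gene is shown by EIF5A, which encodes the hypusine-bearing factor eIF5A. Its stress row had 25, 9 and 16 reads in mock, GD and TG. Its genotype row, another transcript, held 1660 and 1048 reads for mock and GD of WT cells, and 1346 and 1115 for those of deficient cells. The row for EIF4E, the cap-binding protein itself, had 2, 0 and 2 reads in mock, GD and TG, which says nothing about the gene's other transcripts. The rows for EIF3C, an eIF3 core subunit, had 1, 0 and 4 reads in the stress set and 81 and 66 in genotype-set WT mock and GD. The row for EIF4G1, the main scaffold, held 102 and 74 reads for mock and GD of WT cells, and 114 and 68 for those of deficient cells. Rows with under 50 reads in both libraries of a comparison entered no count of 2-fold changes.

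Reads counted per library came to 12771607 to 19024327 in the stress set and 11461365 to 13110714 in the genotype set. The 46 members took 1.06% to 1.38% of them, and in the stress set 1.16% for mock, 1.38% for GD and 1.17% for TG. Between the sets, WT mock differed beyond sampling noise, the chi-square being 73.5 for each degree of freedom over 10368 transcripts, against 17 between WT and deficient mock. For CPM levels and ratios of single libraries, each set was therefore scaled on its own. The main fit scaled its libraries of both sets together and took changes within a set through a term for the set. CPM levels of the sets thus stand on separate scales, and statements on levels that range over both sets describe the values only. For UFD1 itself the tables count different transcripts, and the stress row held 10 reads for mock and 0 for GD and TG. The genotype row held 168 and 107 reads for mock and GD of WT cells, and 199 and 193 for those of deficient cells. Neither row is known to cover the part that sets UFD1s apart, so the genotype label could not be checked on it.

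The first comparison asked which initiation factor transcripts change when glucose is withdrawn. It used 3 mock and GD pairs (stress-set WT, WT cells of the genotype set and deficient cells). EIF1, EIF2A, EIF4A2, EIF5, EIF4B and 5 subunits of eIF3 rose, and EIF4A3 and EIF1AX fell. The rises were between 1.28-fold and 1.98-fold. In numbers, edgeR's quasi-likelihood test called 12 of 34 members (35.3%), 10 higher and 2 lower. Among all 10368 transcripts tested the same call was made for 20.9%, with 9.75% higher and 11.1% lower. The median log2 change of the members was 0.17, with 25 of 34 above 0, and that of all transcripts was −0.02. The change had the same sign in all 3 pairs for 21 members (61.8%), 16 higher and 5 lower, against 55.1% of all transcripts. The call counts rested on the libraries entered, and the share of all transcripts moved with them. There were 4 called members without deficient mock and 4 without deficient GD, where 4.86% and 4.76% of all transcripts were called. Without WT mock or WT GD of the genotype set there were 7 each, against 11.5% and 11.1% of all. Without the WT mock or the WT GD library of the stress set there were 20 and 21, against 36.7% and 39% of all. Once 1 library of a pair is left out, its partner is matched by a term of its own and adds nothing to the GD change. These fits thus in effect drop 1 of the 3 pairs and are not 6 separate checks. The genotype set alone and WT cells alone drop the stress-set pair and the deficient pair in the same way. The genotype set alone gave 20 (39% of all transcripts), WT cells alone 4 (4.74%) and a fit with no term for the set 0 (0.231%). With library totals in place of TMM factors, 9 of 14 called members were higher (64.3%), against 83.3% in the main test, and the median of all transcripts moved to −0.10. Computed within each set, as used for CPM and ratios, TMM factors were 1.02 to 1.06 in the mock libraries and 0.959 to 0.977 in GD. The test computed its own factors over the 6 libraries together, and these are not given here.

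**Figure D1:**
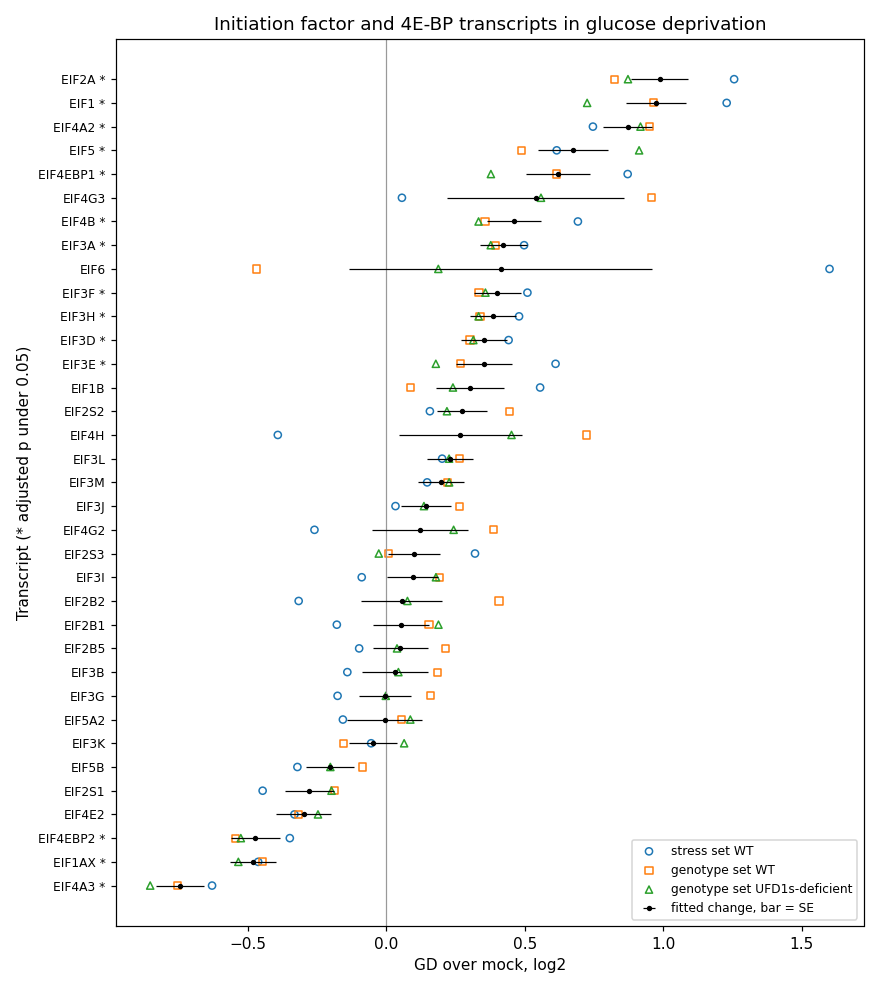
Log2 change of GD over mock for the 33 tested members of the coding family and for EIF4EBP1 and EIF4EBP2, 35 transcripts in all. Open symbols are the 3 mock and GD pairs, black points the fitted change with its SE, and an asterisk marks an edgeR adjusted p under 0.05. All 14 marked transcripts have their 3 pairs on 1 side of 0, from EIF2A at 0.99 to EIF4A3 at −0.75.

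The eIF1 and eIF1A proteins bind the small subunit and keep it open for scanning until a start codon is found. EIF1 lay at 418.5 CPM (counts scaled by the TMM-adjusted size of the library) in stress-set mock, at 993 in GD and at 739 in TG. In the genotype set its mock levels were 366 for WT and 382 for deficient cells, and its GD levels 716 and 631. Every GD library was above every mock library. EIF1 rose by 0.97 on the log2 scale (SE 0.107, edgeR adjusted p = 0.000628, higher in 3 of 3 pairs), and it was called without any 1 of the 6 libraries, at 0.85 to 1.10.

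EIF1AX, the X-linked gene for eIF1A, went the other way. Its level was 352, 258 and 323 CPM in stress-set mock, GD and TG, 294 and 215 in genotype-set WT mock and GD, and 326 and 224.5 in deficient mock and GD. The mock and GD libraries did not overlap. The fitted log2 change was −0.48 (SE 0.0819, edgeR adjusted p = 0.00433, lower in 3 of 3 pairs). Without deficient mock or deficient GD it was −0.46 and was not called, with adjusted p of 0.0931 and 0.101 in edgeR. EIF1B, a close relative of EIF1, was not called at 0.30, with ratios of 1.49 in the stress set, 1.06 in WT cells of the genotype set and 1.18 in UFD1s-deficient cells. EIF1, EIF1B and EIF1AX have near-identical copies in the genome, and how reads shared with copies were counted is not given in the sources used here.

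Trimeric eIF2 carries the initiator tRNA, and its alpha subunit is the target of the stress kinases. None of its 3 subunit transcripts was called in GD. EIF2S1, the alpha subunit, had 346 and 257 CPM in stress-set mock and GD, 293 and 257 in WT cells of the genotype set and 324 and 282 in UFD1s-deficient cells. Its log2 change was −0.28 (edgeR adjusted p = 0.0535). EIF2S2, the beta subunit, had 341 and 385, 302 and 411, and 329 and 383 in the same pairs. Its log2 change was 0.27 (edgeR adjusted p = 0.0595). In both genes the GD libraries lay on 1 side of all mock libraries, and in opposite directions. EIF2S1 passed the threshold with library totals alone and with a mean of 50 or more reads required, EIF2S2 with RLE size factors and in DESeq2, and both in the genotype set alone. EIF2S3, the gamma subunit, which has near-identical copies, changed by 0.10 (SE 0.0951). Its ratio was 1.26 in the stress set and near 1 in the genotype set, at 1.005 in WT and 0.98 in UFD1s-deficient cells.

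EIF2A is not a subunit of eIF2. It encodes a separate protein that can bring initiator tRNA to the ribosome by itself on some mRNAs. It had the largest rise of all members, 0.99 on the log2 scale (SE 0.104, edgeR adjusted p = 0.000528, higher in 3 of 3 pairs). The levels were 199, 481 and 316 CPM in stress-set mock, GD and TG, 131 and 232 in genotype-set WT mock and GD, and 151.5 and 277 in deficient mock and GD. The GD libraries were all above the mock libraries, and leaving out any 1 library kept the call, at 0.85 to 1.07. EIF2D, which also handles tRNA outside the eIF2 route, held 338 and 352 reads for mock and GD of WT cells, and 340 and 355 for those of deficient cells, ratios of 1.19 and 1.20 after scaling.

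The exchange factor eIF2B reloads eIF2 with GTP and is the enzyme that phosphorylated eIF2 blocks. Its 3 tested subunit transcripts, EIF2B1, EIF2B2 and EIF2B5, were not called, with log2 changes of 0.05 for each. EIF2B5, the catalytic epsilon subunit, had 82.9, 78.3 and 86.5 CPM in stress-set mock, GD and TG. It had 81.6 and 94.8 in genotype-set WT mock and GD and 102.9 and 105.6 in UFD1s-deficient cells. EIF2B3, counted on different transcripts, had 10, 8 and 16 reads in the stress set and 128 and 148 in genotype-set WT mock and GD.

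The 13-subunit eIF3 is the largest initiation factor and the platform on which the small subunit, eIF1, eIF5 and eIF4G meet. Of its 12 tested transcripts 5 rose and 0 fell, with a median log2 change of 0.21 and 10 of 12 above 0. Of all 10368 transcripts 9.75% rose and 11.1% fell, with a median of −0.02 and 4983 above 0. EIF3A, the largest core subunit, had 744 and 1063 CPM in stress-set mock and GD, 787 and 1034 in WT cells of the genotype set and 913 and 1185 in UFD1s-deficient cells. It rose by 0.42 (SE 0.0838, edgeR adjusted p = 0.00846). EIF3D, a peripheral subunit that can bind the cap of some mRNAs, had 368 and 506, 379 and 468, and 411 and 510 in the same pairs and rose by 0.35 (SE 0.0844, edgeR adjusted p = 0.0178). In both genes all GD libraries lay above all mock libraries.

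The other 3 called subunits, EIF3E, EIF3F and EIF3H, belong to the core of subunits with PCI or MPN domains. EIF3F went from 307 to 442 CPM in the stress set, from 356 to 449 in WT cells of the genotype set and from 398 to 510 in UFD1s-deficient cells. It rose by 0.40 (SE 0.0855, edgeR adjusted p = 0.0116). EIF3H went from 275 to 388, from 226 to 286 and from 224 to 282.5 and rose by 0.38 (edgeR adjusted p = 0.0125). EIF3E went from 544 to 841, from 478 to 576 and from 542 to 613 and rose by 0.35 (edgeR adjusted p = 0.0378). Its ratio of 1.55 in the stress set stood above 1.20 in WT cells of the genotype set and 1.13 in UFD1s-deficient cells. The 5 subunits were called without either stress-set library. They were not called without any 1 of the 4 genotype-set libraries, where the highest adjusted p in edgeR was 0.127 for EIF3A, 0.175 for EIF3D, 0.143 for EIF3E, 0.132 for EIF3F and 0.132 for EIF3H. EIF3E also missed the call with library totals alone, at 0.27. The remaining tested subunits were EIF3B, EIF3G, EIF3I, EIF3J, EIF3K, EIF3L and EIF3M, with log2 changes from −0.05 for EIF3K to 0.23 for EIF3L.

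The eIF4A helicases unwind the leader of the mRNA as part of eIF4F. EIF4A2 had 394 CPM in stress-set mock, 669 in GD and 365.5 in TG. The genotype set had mock levels of 324 for WT and 347 for deficient cells, and GD levels of 626.5 and 656. The 3 GD libraries lay between 626.5 and 669, and the mock and TG libraries between 324 and 394. The rise was 0.87 on the log2 scale (SE 0.0879, edgeR adjusted p = 0.000427, higher in 3 of 3 pairs), called without any 1 library at 0.83 to 0.94.

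EIF4A3 shares the helicase fold but acts in the exon junction complex, which marks spliced mRNA. It had the largest fall of the members. The levels were 265, 173 and 256 CPM in stress-set mock, GD and TG, 253 and 150 in genotype-set WT mock and GD, and 295 and 163 in deficient mock and GD. The GD libraries were all below the mock libraries. The fitted log2 change was −0.75 (SE 0.0875, edgeR adjusted p = 0.000867, lower in 3 of 3 pairs), and it was called without any 1 library at −0.81 to −0.69.

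Since EIF1, EIF2A, EIF4A2 and EIF4A3 were the members called without any 1 library, the 150 bases before their start sites are shown, read 5′ to 3′ on the strand of the gene. They come from RefSeq's GRCh38.p14, while the authors used hg19. Capitals mark matches to the motifs searched on both strands: CCAAT (the CCAAT box), CACGTG (an E-box), TATAAA (the TATA box), TGATGCAA (a C/EBP-ATF element) and TGACGTCA (the cAMP response element).
EIF1, chr17:41688735-41688884, plus strand: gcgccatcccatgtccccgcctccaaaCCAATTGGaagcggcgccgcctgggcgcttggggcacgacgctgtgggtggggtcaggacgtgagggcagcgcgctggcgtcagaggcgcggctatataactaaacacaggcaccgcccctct
EIF2A, chr3:150546637-150546786, plus strand: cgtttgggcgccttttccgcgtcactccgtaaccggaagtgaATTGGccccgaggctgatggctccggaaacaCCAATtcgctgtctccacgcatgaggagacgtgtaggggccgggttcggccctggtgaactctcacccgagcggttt
EIF4A2, chr3:186783427-186783576, plus strand: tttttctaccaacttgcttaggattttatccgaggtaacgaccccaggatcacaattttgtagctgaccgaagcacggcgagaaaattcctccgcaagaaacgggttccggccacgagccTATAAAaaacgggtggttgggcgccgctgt
EIF4A3, chr17:80147129-80147278, minus strand: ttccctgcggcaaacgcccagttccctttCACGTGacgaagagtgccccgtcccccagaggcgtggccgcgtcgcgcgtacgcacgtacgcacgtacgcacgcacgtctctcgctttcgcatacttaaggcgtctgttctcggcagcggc

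The windows of EIF1 and EIF2A each hold 2 CCAAT matches, which overlap on opposite strands in EIF1. Those of EIF4A2 and EIF4A3 hold a TATA box and an E-box. Windows of 300 bases, from 250 before to 50 after the start, were available for 42 of the 49 members and EIF4EBP genes, 57 windows in all. CCAAT was in 33.3% of these 57 and in 34.6% of all 35116 windows. CACGTG was in 12 of 57 (21.1%) against 7.26% of all. The genes were EIF1B, EIF1B-AS1, EIF2B3, EIF3F, EIF3K, EIF4A3, EIF4B, EIF4E, EIF4EBP3, EIF4G1, EIF4H and EIF5A2. The EIF1B-AS1 locus ends at base 40309698 of chromosome 3 and that of EIF1B starts at 40309707, so 1 site may be counted for both. TATAAA was in 3.51% against 11.5%. The C/EBP-ATF element and the cAMP response element were in 0 of 57, against 0.866% and 1.85% of all windows. Some genes have several windows that overlap, and a match describes letters and not a binding site.

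**Figure D2:**
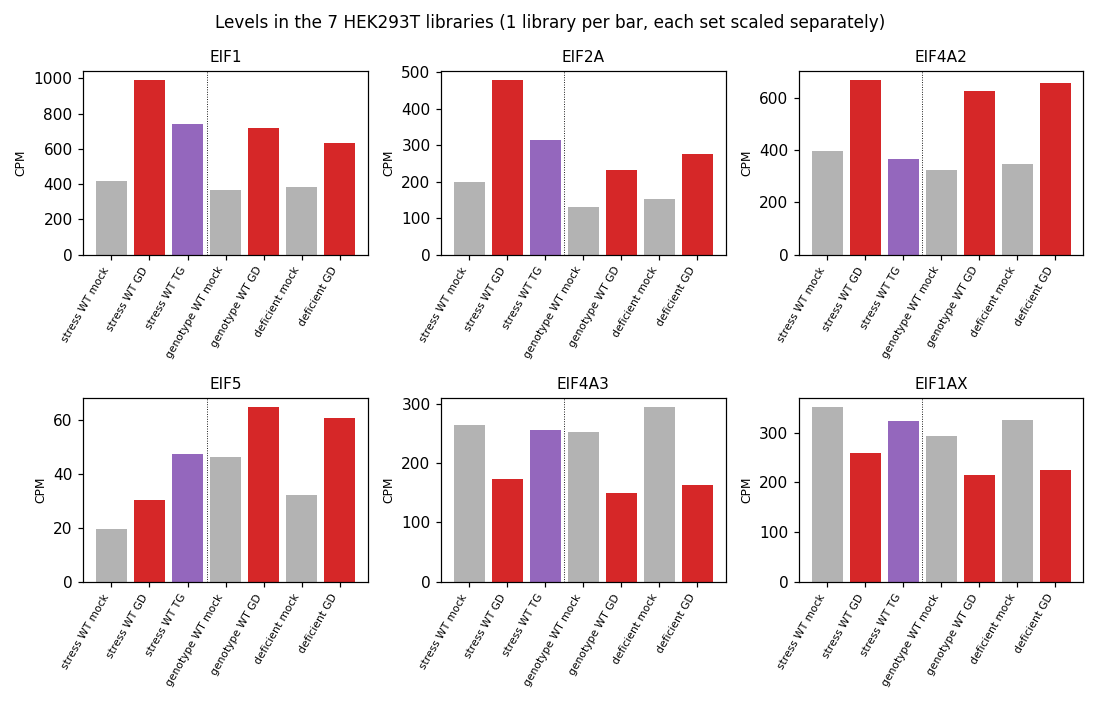
CPM in each of the 7 HEK293T libraries for EIF1, EIF2A, EIF4A2, EIF5, EIF4A3 and EIF1AX, 1 library per bar, with mock in grey, GD in red and TG in purple. Each set was scaled separately. GD bars stand above the mock bar of their own set in EIF1, EIF2A, EIF4A2 and EIF5 and below it in EIF4A3 and EIF1AX.

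EIF4B and EIF4H encode cofactors that raise the helicase activity of eIF4A. EIF4B had 1422, 2324 and 1447 CPM in stress-set mock, GD and TG, 1402 and 1796 in genotype-set WT mock and GD, and 1337 and 1683 in deficient mock and GD. All GD libraries were above all mock libraries. EIF4B rose by 0.46 (SE 0.0974, edgeR adjusted p = 0.0112), and was not called without deficient mock or deficient GD, where the highest adjusted p in edgeR was 0.104. EIF4H changed by 0.27 (SE 0.222, edgeR adjusted p = 0.427). Its pairs went apart, at a ratio of 0.769 in the stress set against 1.66 in WT cells of the genotype set and 1.37 in UFD1s-deficient cells.

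The cap-binding and scaffold transcripts were not called. EIF4E2 encodes 4EHP, a relative of eIF4E that binds the cap without recruiting eIF4G. It had 60.4, 48.5 and 38.8 CPM in stress-set mock, GD and TG, 69.1 and 55.4 in genotype-set WT mock and GD, and 79.8 and 67.2 in deficient mock and GD. It was lower in 3 of 3 pairs, at −0.30 (edgeR adjusted p = 0.0592), and passed the threshold with library totals alone and in the genotype set alone. EIF4G2, a scaffold without the eIF4E site, changed by 0.12 and EIF4G3, a relative of EIF4G1, by 0.54 (SE 0.321, edgeR adjusted p = 0.265), the latter on 35 to 84 reads. EIF4E3 had 12 to 37 reads in the genotype set, EIF4ENIF1, which carries eIF4E into the nucleus, 4 to 11 in the stress set, and EIF4E1B at most 1.

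EIF5 encodes the GTPase activator that makes eIF2 hydrolyse its bound GTP at the start codon. The level was 19.6 CPM in stress-set mock, 30.5 in GD and 47.3 in TG, from 355, 374 and 883 reads. Mock levels of the genotype set were 46.2 for WT and 32.2 for deficient cells, and its GD levels 64.9 and 60.7. Each GD library was above the mock library of its own pair, but GD in the stress set lay below both mock libraries of the genotype set. The rise was 0.67 on the log2 scale (SE 0.127, edgeR adjusted p = 0.00677). It was not called without deficient mock or deficient GD, where the highest adjusted p in edgeR was 0.107. EIF5B, the GTPase that joins the ribosomal subunits, was not called at −0.20 and was lower in 3 of 3 pairs. EIF5A2, a second hypusine-bearing factor, changed by −0.01. EIF6, which keeps large subunits from joining too early, was counted in both sets on a transcript that RefSeq lists as noncoding. That row had 6, 16 and 34 reads in stress-set mock, GD and TG and 14 to 23 in the genotype set.

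The 2 measurable EIF4EBP genes moved in opposite directions. EIF4EBP1 had 36.3, 67.4 and 94.7 CPM in stress-set mock, GD and TG, 75.0 and 114.9 in genotype-set WT mock and GD, and 66.4 and 86.3 in deficient mock and GD. It rose by 0.62 (SE 0.116, edgeR adjusted p = 0.00644) and kept its call without any 1 library, at 0.50 to 0.74. EIF4EBP2, the other 4E-BP gene, had 914, 726 and 590 in the stress set, 796 and 546 in WT cells of the genotype set, and 748.5 and 519 in UFD1s-deficient cells. Its log2 change was −0.47 (SE 0.0872, edgeR adjusted p = 0.0061, lower in 3 of 3 pairs). It was not called without any 1 of the 4 genotype-set libraries, where the highest adjusted p in edgeR was 0.127. EIF4EBP3 had 2, 0 and 0 reads in the stress set.

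The second comparison set thapsigargin beside glucose deprivation within the stress set. TG raises ER stress directly, and each condition has 1 library here. The rule was a ratio of at least 2-fold, with a minimum of 50 reads in the library that was higher. Ratios carry exact 95% intervals that cover counting error only. EIF5 was the single member of 32 past 2-fold in TG (3.12%, against 8.13% of all 9116 transcripts), at 2.41 times mock (2.13 to 2.73). In GD, EIF1 at 2.37 (2.31 to 2.44) and EIF2A at 2.42 (2.32 to 2.52) were past 2-fold, 2 of 32 members (6.25%, against 7.23% of all). The shares of members past 2-fold were thus not above those of all transcripts. With 20 reads as the minimum, 4 members were past 2-fold in TG, the added 3 being EIF6, EIF1AD and EIF3J-DT with at most 34 reads.

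After EIF5, and among members that met the minimum of 50 reads, the highest TG ratios were EIF1 at 1.77 (1.72 to 1.82), EIF2A at 1.59 (1.52 to 1.66), EIF2S2 at 1.57 (1.52 to 1.62) and EIF3J, the loosely bound eIF3 subunit, at 1.51 (1.44 to 1.59). The lowest among them were EIF4E2 at 0.642 (0.584 to 0.706), EIF5A2 at 0.765, EIF4H at 0.839, EIF3L at 0.907 and EIF1AX at 0.918. At a bound of 1.5-fold this made 5 members higher and 1 lower (18.8%, against 22.5% of all transcripts). EIF4EBP1 was 2.61 times mock (2.38 to 2.86) in TG and EIF4EBP2 0.645 (0.63 to 0.661), the directions they had in GD.

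A test of TG was added after these ratios were seen, with edgeR on all 7 libraries and the lone TG library assumed to vary like the others (2 residual degrees of freedom). In this fit the mock level draws on all pairs, so its changes differ somewhat from the ratios. It called 5 of 34 members in TG (14.7%, against 8.15% of all transcripts), 4 higher and 1 lower. EIF5 rose by 1.29 on the log2 scale (SE 0.193, edgeR adjusted p = 0.00457), EIF2S2 by 0.70, EIF1 by 0.68 and EIF3J by 0.65, and EIF4E2 fell by 0.63 (edgeR adjusted p = 0.0444). EIF2A, at 0.52, was not called (edgeR adjusted p = 0.0808). EIF5 was the 1 member called without any 1 of the other 6 libraries. The count was 1 without either deficient library, where 3.28% and 3.05% of all transcripts were called. It was 4 without either WT library of the genotype set, against 8.42% and 8.7%, and 15 and 10 without stress-set mock and GD, against 29.4% and 27.1%.

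Some transcripts were high in GD and at the level of mock in TG. EIF4A2 had 394, 669 and 365.5 CPM in mock, GD and TG, so its TG level was 0.546 times that of GD (0.529 to 0.564). EIF4B stood at 0.623 times GD and EIF3E at 0.609, with TG over mock at 1.02 and 0.941. EIF2A was at 0.657 times GD but not at the level of mock, with TG over mock at 1.59. EIF5 and EIF2B2 were higher in TG than in GD, at 1.55 and 1.59 times, and in GD they stood at 1.55 and 0.811 times mock. EIF4A3 lay at 0.967 times mock in TG (0.929 to 1.01) and at 0.653 in GD. Directly between TG and GD, 0 of 32 members differed by 2-fold (against 8.5% of all 8918 transcripts), and 6 differed by 1.5-fold, 2 higher and 4 lower in TG (18.8%, against 25.4%). The fit on 7 libraries called 2 of 34 members between TG and GD (5.88%, against 4.59% of all). EIF4A2 was lower in TG, at −0.92 (SE 0.143, edgeR adjusted p = 0.0112) and EIF4A3 higher, at 0.64 (SE 0.135, edgeR adjusted p = 0.0339). No member was called without either deficient library (1.14% and 0.993% of all transcripts were), though 10 members had an unadjusted p under 0.05 in edgeR in each, and 22 and 14 were called without stress-set mock and GD (29% and 18.2%). GD lasted 24 h and TG 6 h, and the agents and times cannot be told apart. Both ratios to mock use the same mock library.

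**Figure D3:**
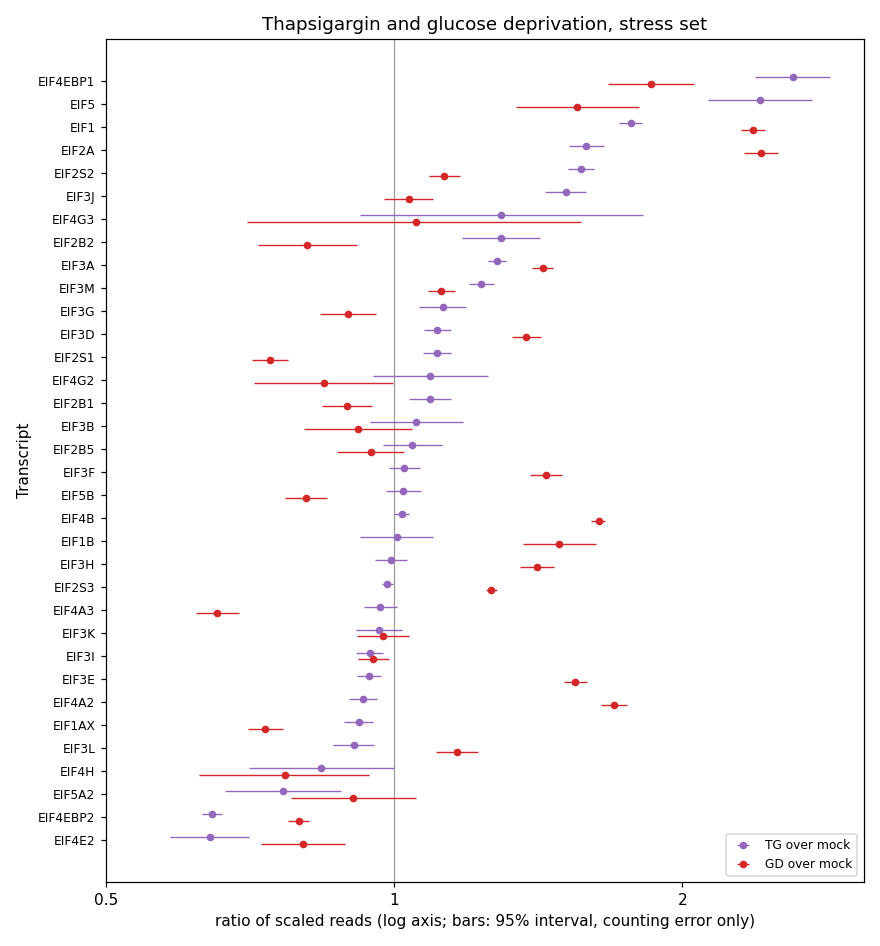
Ratio to mock in the stress set for the 34 coding transcripts, EIF4EBP1 and EIF4EBP2 included, with 50 or more reads, on a log axis, ordered by TG (purple) with GD in red; bars are 95% intervals for counting error. EIF5, EIF2S2 and EIF3J lie further right in TG, and EIF4A2, EIF4B and EIF3E in GD.

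The third comparison set UFD1s-deficient cells against WT. No member was called: 0 of 34, against 1.11% of all transcripts, with 3 members at an unadjusted p under 0.05 and 0 called in DESeq2. The largest difference was in EIF5A2. It had 20.8 CPM in WT mock and 32.4 in deficient mock, and 21.6 in WT GD and 34.4 in deficient GD, ratios of 1.56 (1.34 to 1.82) and 1.59 (1.35 to 1.88). Stress-set WT mock, at 25.6, lay between the genotypes. The log2 difference was 0.66 (SE 0.168) and did not pass, with an edgeR adjusted p of 0.11. The other 2 members at an unadjusted p under 0.05 in edgeR were EIF2B1 at −0.32, with ratios of 0.79 in mock and 0.808 in GD, and EIF3L at 0.24, with 1.20 and 1.16.

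The genotype calls also rested on the libraries entered. In the 4 libraries of the genotype set alone 11 members passed, 9 higher and 2 lower (32.4%, against 18.7% of all transcripts). EIF5A2 was among them, with an adjusted p of 0.000187 in edgeR, and its adjusted p ranged up to 0.839 over the alternatives. Without stress-set mock 8 members passed and without stress-set GD 10 (against 16% and 18.7% of all transcripts), and 0 without any 1 of the genotype-set libraries. No member differed 2-fold between genotypes, in mock (0 of 36, against 2.73% of all) or in GD (0 of 37, against 2.74%). Of the 13 eIF3 subunits with a genotype row, 9 had ratios above 1 in both conditions, from 1.02 for EIF3M to 1.20 for EIF3L. Ratios lay below 1 in both for 3, EIF3B at 0.845 in mock and 0.765 in GD, EIF3C at 0.729 and 0.725, and EIF3H at 0.992 and 0.987. EIF3K had 0.975 and 1.13, and no subunit was called. EIF5 was at 0.696 times WT in mock (0.613 to 0.789) and at 0.934 in GD (0.841 to 1.04). EIF5A, on its genotype row, was at 0.772 in mock and 1.02 in GD.

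**Figure D4:**
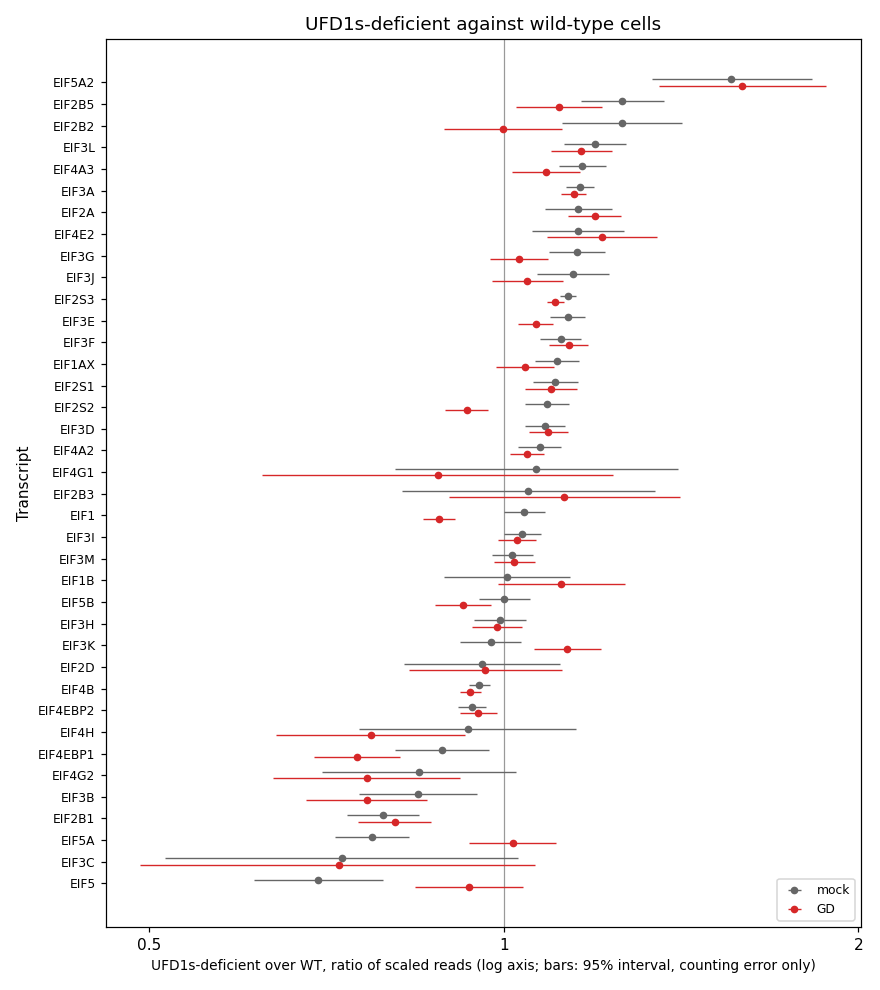
Ratio of UFD1s-deficient to WT cells for 38 coding transcripts with 50 or more reads, on a log axis, in mock (grey) and GD (red); bars are 95% intervals for counting error. EIF5A2 stands apart at 1.56 and 1.59, and most others lie between 0.75 and 1.26.

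Whether the response to GD depends on genotype was tested directly with an interaction term, which left 1 residual degree of freedom. It called 0 of 34 members, as it called 0% of all transcripts. At an unadjusted p under 0.05 there were 0 members and 123 of 10368 transcripts, and DESeq2 called 0 members. GD ratios in WT and deficient cells of the genotype set were 1.95 and 1.65 for EIF1, 1.77 and 1.83 for EIF2A, 1.94 and 1.89 for EIF4A2, 1.41 and 1.89 for EIF5, and 0.593 and 0.553 for EIF4A3. No member passed 2-fold in either (0 of 37 each, against 6.81% of all transcripts in WT and 6.31% in UFD1s-deficient cells). The noncoding EIF3J-DT, whose strand of counting is not given, held 28 and 27 reads for mock and GD of WT cells, and 39 and 10 for those of deficient cells. Its interaction was −2.21 on the log2 scale (SE 1.01, unadjusted p = 0.055 in edgeR, adjusted p = 1).

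The regulators around these factors were read from a list of 51 other genes of translation control, of which 50 were measured and 40 tested. In GD 10 rose and 1 fell (27.5%, against 20.9% of all transcripts), with a median log2 change of 0.14. PPP1R15A, the subunit that directs dephosphorylation of eIF2 alpha, had 34.3, 246 and 208.5 CPM in stress-set mock, GD and TG, and ratios of GD to mock of 8.44 in WT cells of the genotype set and 7.81 in UFD1s-deficient cells. DDIT4, an inhibitor of mTOR, rose by 1.11 (SE 0.107, edgeR adjusted p = 0.000384) and stood at 2.83 times mock in TG. Both were called without any 1 library.

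Among the kinases of eIF2 alpha, EIF2AK3, which encodes PERK, had 65.3, 169.8 and 283.7 CPM in stress-set mock, GD and TG. It had 50.8 and 70.8 in genotype-set WT mock and GD and 52.6 and 87.3 in UFD1s-deficient cells. It rose in GD by 0.87 (SE 0.154, edgeR adjusted p = 0.00526), and its ratio to mock was 4.35 in TG (4.08 to 4.64), the higher of the 2 stresses. EIF2AK4, which encodes GCN2, changed in GD by 0.19 and PPP1R15B, the constitutive relative of PPP1R15A, by 0.13, and neither was called. MTOR, at 0.05, was not called. The ratios of EIF2AK4 and PPP1R15B to mock in TG were 0.998 and 1.49. In TG, 4 of 34 listed genes with enough reads were past 2-fold, all higher (11.8%). Of all transcripts 8.13% were past 2-fold in either direction, and 4.79% were higher. The 4 listed genes were PPP1R15A, EIF2AK3, DDIT4 and DOHH, an enzyme of eIF5A hypusination. DOHH rested on 32 reads in stress-set mock and 79 in TG, a ratio of 2.39 (1.57 to 3.73). In the fit on 7 libraries PPP1R15A, EIF2AK3 and DDIT4 were called in TG, and DOHH was not.

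Of 8 tested elongation genes, DOHH included, 4 were called higher and 0 lower (50%, against 20.9% of all transcripts called and 9.75% higher). The others were DOHH, EEF1A2, EEF1B2 and EEF2K, at −0.33, −0.28, 0.14 and −0.01. EEF2, the translocase, rose by 0.56 (SE 0.0895, edgeR adjusted p = 0.0034), with GD to mock ratios of 1.70 in the stress set, 1.38 in WT cells of the genotype set and 1.38 in UFD1s-deficient cells. Subunits of eEF1 rose by 0.80 for EEF1D, 0.46 for EEF1A1 and 0.31 for EEF1G, and the poly(A)-binding proteins by 0.81 for PABPC4 and 0.42 for PABPC1. MTIF2, a mitochondrial initiation factor, rose by 0.73, while MTIF3, another, was at −0.64 and was not called. DENR, which works in reinitiation and recycling, was the 1 fall that was called, at −0.30 (SE 0.0931, edgeR adjusted p = 0.0486). It was not called with RLE size factors (adjusted p = 0.0586 in edgeR) or in DESeq2 (adjusted p = 0.0732). In TG the ratios to mock were 1.11 for EEF2, 1.03 for EEF1A1, 1.04 for EEF1G, 1.03 for PABPC1, 0.75 for PABPC4 and 0.692 for EEF1D. Of these listed genes, EEF2, EEF1D, PABPC4 and MTIF2 were not called without deficient mock or deficient GD, and EEF1A1, EEF1G, PABPC1 and DENR without any 1 of the 4 genotype-set libraries. The count of called list genes was 3 without either deficient library, 7 without either WT library of the genotype set, 18 without either stress-set library and 19 in the genotype set alone, fits in which the shares of all transcripts were those given for the members.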

How the data were processed

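RNA of 7 HEK293T libraries was analysed, and 3 N2a libraries were not used here. Per the labels' protocols, total RNA came from TRIzol extraction and libraries were built with a TruSeq Ribo Profile kit. Cutadapt, FastQC, Bowtie2, bedtools and hg19 are named in the submitters' processing notes. How reads were counted, by which annotation release and with which strand, is not given in the sources used here. Deposited HEK293T tables give whole-number counts of reads for each transcript, which the authors did not normalize. Deposited log2 ratios and p-values of the authors stand in the genotype table and were not used.

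The 10368 transcripts in both tables were fitted with edgeR 4.0.16 in R 4.3.3 (quasi-likelihood test, TMM factors, default expression filter, Benjamini-Hochberg adjustment at 0.05) on 6 libraries, mock and GD. Its terms were set, genotype and treatment. This left 2 residual degrees of freedom. The 34 members with a shared transcript all passed the filter, as did all 10368 transcripts. No condition was repeated within a set and no label names separate cultures, so p-values rest on the spread between 3 mock and GD pairs, which may be technical. Comparisons of 1 library with 1 library used ratios of TMM-scaled reads, with log2 values at a prior count of 5. TG was also tested in edgeR on all 7 libraries, an alternative chosen after seeing the data. DESeq2 1.42.0, other scalings, filters and libraries were alternatives. The fits were tested on simulated data.

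Members and gene lists were chosen with earlier results of these data known. Named were all called members, the 5 highest and 5 lowest TG ratios, members past 2-fold, core factors of eIF2 and eIF4F whatever their values, members with different transcripts, called list genes, and EIF2AK3, EIF2AK4, PPP1R15B, MTOR, EEF2 and PABPC1. Others named were chosen after their values were seen.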

Additional observations from a re-analysis of the deposited data

How the results depend on the processing

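The 12 members called in GD (against 20.9% of all transcripts) became 13 with RLE size factors (21.3%) and 14 with library totals alone (21.3%). They became 13 with a mean of 50 or more reads (25.3%) and 13 in DESeq2 (19.1%). The default filter removed no transcript, so the fit with no filter was the same fit and gave the same 12. The called members became 20 in the genotype set alone (against 39% of all transcripts), 4 in WT libraries alone (4.74%) and 0 with no set term (0.231%). Leaving out 1 library gave 4 to 21 (4.76% to 39%). Its partner then adds nothing to the GD change, so these fits in effect drop 1 of the 3 pairs. For genotype the 0 called members became 11 in the genotype set alone and 0 to 10 with 1 library left out. The interaction stayed at 0 under RLE size factors, library totals and DESeq2. The 11 called genes of the translation control list became 19 in the genotype set alone (39% of all transcripts). With 1 library left out they became 3 to 18 (4.76% to 39%). The members past 2-fold became 4 in TG and 1 in TG against GD with a minimum of 20 reads. At that minimum EIF1AD also passed in stress-set GD, at −2.12 on the log2 scale with 20 reads in mock. EIF3J-DT also passed in deficient GD over mock (−1.39) and in deficient over WT in GD (−1.14), on at most 39 reads. The shares of all transcripts at this minimum are not given here. At 1.5-fold and 50 reads, 6 members passed in TG (22.5% of all transcripts) and 6 in TG against GD (25.4%). In edgeR on 7 libraries, a setting chosen after seeing the data, 5 members were called in TG and 2 in TG against GD. The cause of these moves was not tested.

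Of the 14 EIF and EIF4EBP genes called in GD, 14 kept the call under RLE size factors and in DESeq2. It was also kept by 14 with a mean of 50 or more reads and by 14 in the genotype set alone. Fewer kept it with library totals alone (13), in WT libraries alone (5) and with no set term (0). No fitted direction of these 14 reversed under any of these settings or with 1 library left out. The labels give no replicate numbers, and no further block was added, since the terms for set and genotype already pair each GD library with the mock library of its own set and cells. Depth limits the rows under 50 reads. The lone TG library adds no spread of its own to its test.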

Other observations

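EIF4H and EIF4G2 were lower in GD in the stress set and higher in both pairs of the genotype set, at ratios of 0.769, 1.66 and 1.37 for EIF4H and 0.844, 1.31 and 1.18 for EIF4G2. EIF2B2 had 0.811, 1.33 and 1.05. Whether the sets differ in these responses was not tested.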
